A study of Mus musculus with 24 samples.

Results

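The 10 genes described here encode the machinery with which a cell senses interleukin-1: the ligands *Il1a* and *Il1b*, the secreted antagonist *Il1rn*, the signalling receptor *Il1r1* and its accessory chain *Il1rap*, the decoy receptor *Il1r2*, the adaptor *Myd88*, the kinase *Irak2*, and the inhibitors *Irak3* and *Tollip*. They were chosen by name, as ligands, receptors and proximal signalling genes, from the 55471 genes in the count tables, and the question put to them was whether genotype changed the capacity of the cells to sense IL-1β. Of the 10, 9 passed the filter on low counts that left 17522 genes for testing. *Il1b* did not pass.

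IL-1α and IL-1β bind the receptor IL1R1, which then recruits the accessory protein IL1RAP. Their paired intracellular domains draw in MYD88 and the IRAK kinases, a step that leads through TRAF6 to NF-κB and MAP kinases. Cells restrain the pathway with the antagonist IL1RN, which occupies IL1R1 without signalling, with the decoy IL1R2, which binds ligand but lacks a signalling domain, and with IRAK3 and TOLLIP, which dampen signalling at the receptor. Fibroblasts are a classical IL-1 target cell.

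RNA-seq was performed on 3T3 mouse embryonic fibroblasts (MEFs) in 24 libraries, 3 for each of 8 groups. The 4 lines were wild type (WT), *Lkb1*-/- (knockout of *Stk11*, the gene for the kinase LKB1), and the *Lkb1*-/-/*Crtc2*-/- clones A1 and A2, which lack both LKB1 and the CREB coactivator CRTC2. Each line was left untreated or was given IL-1β for 6 h, at 0.1 ng/mL by the study's methods. Clones A1 and A2 were both derived from *Lkb1*-/- MEFs by CRISPR targeting of the first *Crtc2* exon, so each was a single clone, and WT and *Lkb1*-/- were separate established lines: line and genotype cannot be told apart. Nothing in the labels says that the 3 libraries of a group were separate cultures, so the p-values measure the spread between libraries, which may be technical.

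Gene counts per library ranged from 38842901 to 48594394. *Stk11* counts were 3264 to 3790 in WT libraries and 678 to 1051 in the libraries of the other 3 lines, so *Stk11* followed its label. *Crtc2* was not lost at the RNA level in the clones: it was lower than in *Lkb1*-/- MEFs (untreated log2 difference -0.92 in A1 and -0.70 in A2), which stood 1.39-fold above WT, but untreated A1 and A2 still had 0.734 and 0.853 times the WT level. Gene counts therefore do not check the *Crtc2* knockout of the clones. The fibroblast label was checked with 8 markers: 6 exceeded 10 counts in every library, their summed level was 3108 to 7068 CPM (counts scaled to library size), and 2, *Thy1* and *Fap*, stayed at 8 counts or fewer in every library. *Pdgfra* set the lines apart, with 166 to 261 counts in WT libraries and 8587 to 24704 in the others. *Col1a2* went the other way, at a mean of 780 CPM in untreated WT and 63.0, 246 and 128 CPM in untreated *Lkb1*-/-, A1 and A2 MEFs. Means were also lower in untreated *Lkb1*-/- than in WT MEFs for *Col1a1* (1485 and 2378 CPM), *Vim* (2462 and 3208) and *S100a4* (0.906 and 2.26). *Pdgfrb* was higher (93.7 and 50.4 CPM). Of the 8 leukocyte markers, *Ptprc*, *Adgre1* and *Tyrobp* did not exceed 1 count in any library, *Itgam*, *Aif1* and *Lyz2* did not exceed 20, *Cd68* was at 103 to 309 counts in every library, and *Csf1r* was at 1 to 6 counts in WT libraries and 45 to 114 in the others. The 6 epithelial markers did not exceed 13 counts, and their summed level was at most 0.499 CPM. Of these only *Epcam* passed the filter, and it was higher in *Lkb1*-/- than in WT MEFs (untreated log2 2.77, FDR 0.00203, and treated log2 2.38, FDR 0.00820). The 4 endothelial markers summed to 0.370 to 0.678 CPM in WT libraries and 2.06 to 3.85 CPM in the others, mainly from *Kdr* (untreated *Lkb1*-/- minus WT log2 2.73, FDR 2.58e-08), while *Tek*, *Cdh5* and *Pecam1* stayed at 8 counts or fewer. The part of the fibroblast markers, *Csf1r*, *Epcam* and *Kdr* in the line differences given here was not tested. Of 8 genes known to respond to IL-1β, 7 rose in WT, 8 in *Lkb1*-/-, 7 in A1 and 8 in A2 MEFs (FDR under 0.05; median log2 2.36, 1.96, 1.56 and 1.85), while 268, 464, 210 and 493 of all 17522 tested genes rose.

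In the GRCm38 build the receptor genes *Il1r2* (chr1:40074079-40125231) and *Il1r1* (chr1:40225080-40317257) are neighbours on the plus strand, and the ligand genes *Il1a* (chr2:129299610-129309972) and *Il1b* (chr2:129364570-129371139) are neighbours on the minus strand. *Il1rn* lies apart from them at chr2:24336853-24351494. The remaining members are at chr16:26581704-26730117 (*Il1rap*), chr9:119335934-119341411 (*Myd88*), chr6:113638467-113695026 (*Irak2*), chr10:120141648-120202130 (*Irak3*) and chr7:141874813-141918507 (*Tollip*). To show the DNA in front of the genes on which the results turn, the 150 bases before a RefSeq start (GRCm38.p6) are printed for the signalling receptor pair and for the 3 other members that changed with IL-1β, each 5′ to 3′ on the strand of its gene. Capitals mark motif letters on either strand: GGGANNNNCC (NF-κB-like), TGANTCA (AP-1-like), TGACG (the short form of the cyclic AMP response element, CRE, which also lies within the full CRE TGACGTCA) and TATAAA.
Il1r1, chr1:40224930-40225079: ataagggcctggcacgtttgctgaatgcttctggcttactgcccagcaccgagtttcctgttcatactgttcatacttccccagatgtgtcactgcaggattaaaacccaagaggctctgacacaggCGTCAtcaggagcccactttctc
Il1rap, chr16:26581555-26581704: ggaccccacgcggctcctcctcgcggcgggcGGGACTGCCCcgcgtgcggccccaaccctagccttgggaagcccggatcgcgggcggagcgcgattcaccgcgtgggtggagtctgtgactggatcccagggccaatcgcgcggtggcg
Il1rn, chr2:24336710-24336859: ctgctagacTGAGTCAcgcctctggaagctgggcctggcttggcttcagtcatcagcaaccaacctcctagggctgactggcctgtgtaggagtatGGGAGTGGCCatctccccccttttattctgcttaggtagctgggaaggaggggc
Il1a, chr2:129309973-129310122: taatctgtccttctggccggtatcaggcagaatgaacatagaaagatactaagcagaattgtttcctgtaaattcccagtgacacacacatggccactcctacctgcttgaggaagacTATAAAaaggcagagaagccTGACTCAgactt
Irak3, chr10:120201598-120201747: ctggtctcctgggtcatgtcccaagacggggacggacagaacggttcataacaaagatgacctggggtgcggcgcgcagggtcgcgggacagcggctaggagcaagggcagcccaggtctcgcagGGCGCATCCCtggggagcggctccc

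All 10 members matched RefSeq, with 14 windows of 300 bases between them (250 before and 50 after a start). The NF-κB-like letters were in windows of 3 members (*Il1rap*, *Il1rn* and *Irak3*) and in 20.7% of all 32851 windows. The AP-1-like letters were in windows of *Il1a* and *Il1rn* and in 7.81% of all windows. The short CRE was in windows of *Il1r1*, where it lies 23 bases before the start, and of *Irak3*, where it lies past the start, and in 20.8% of all windows. No member window held the full CRE, which 1.79% of all windows did. These matches describe letters in a window and are not binding sites.

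Levels were compared between genes per kb of exon. In untreated WT MEFs the order was *Tollip* (19.99 ± 0.571 CPM per kb, SD, n = 3), *Myd88* (16.9 ± 1.79), *Il1r1* (13.0 ± 1.62), *Irak2* (6.40 ± 0.653) and *Il1rap* (5.53 ± 0.293). In untreated *Lkb1*-/- MEFs *Il1r1* stood first at 23.2 ± 2.66 CPM per kb, followed by *Myd88* at 14.999 ± 0.545, *Tollip* at 10.2 ± 0.934, *Il1rap* at 7.53 ± 0.566 and *Irak2* at 5.44 ± 0.723. The signalling receptor thus ranked above the adaptor and above the inhibitor TOLLIP in *Lkb1*-/- MEFs and below both in WT MEFs. *Irak3*, *Il1rn* and *Il1r2* had means of at most 2.45 CPM per kb in every untreated line, and *Il1a* and *Il1b* had no count in any untreated library. In bulk RNA a level per cell and a share of expressing cells cannot be told apart.

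**Figure D1:**
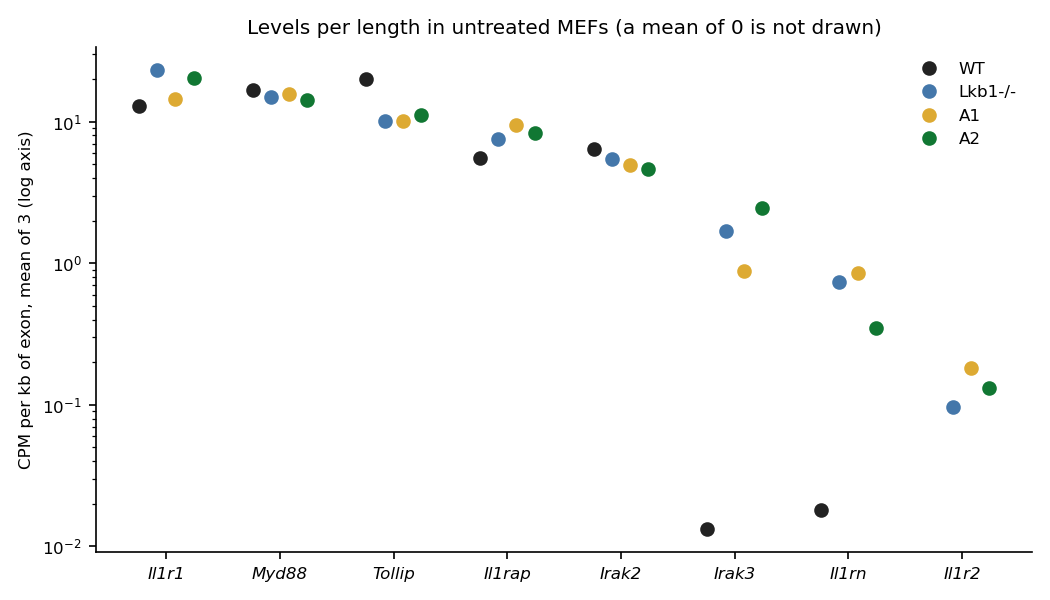
Mean level per kb of exon (vertical, log axis) of 8 genes in untreated MEFs, each point the mean of 3 libraries of 1 line. *Il1r1* was at 13.0 CPM per kb in WT and 23.2 in *Lkb1*-/- MEFs, *Tollip* at 19.99 and 10.2, and *Irak3* at 0.0132 and 1.68. *Il1r2* in WT had no counts and is not drawn, nor are *Il1a* and *Il1b*.

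The ligands were almost silent at the RNA level. A single *Il1b* count was found in all 24 libraries, in an IL-1β-treated A1 library, so endogenous *Il1b* was not detectable at this depth, where 3 counts in a library correspond to 0.0653 to 0.0739 CPM averaged over a group. *Il1a*, the ligand that is active without processing, had 0 counts in all 12 untreated libraries. With IL-1β it reached 13, 11 and 8 counts in the WT libraries and 15, 18 and 16 counts in the *Lkb1*-/- libraries. It reached 1, 0 and 2 counts in A1 and 1, 6 and 12 counts in A2. The rise was therefore present in every stimulated WT and *Lkb1*-/- library but small in absolute terms, and clone A2 spanned from the A1 range to the WT range. Against a floor of 3 counts per library, *Il1a* was at least 3.66-fold higher with IL-1β in WT MEFs and at least 5.35-fold higher in *Lkb1*-/- MEFs. Both rises passed the test (false discovery rate, FDR, 0.0152 and 0.00325, from the edgeR quasi-likelihood test with Benjamini-Hochberg adjustment over all 17522 genes, as for every FDR here), and so did that in A2 (FDR 0.0261). *Il1a* passed the filter on low counts only through treated libraries, so these FDRs are not support separate from the counts. Without untreated WT replicate 2 the WT rise had an FDR of 0.0653, and the A2 rise had FDRs of 0.0713 to 0.0725 without untreated A2 replicate 2 or 3 or IL-1β-treated A2 replicate 3. Summed over 3 IL-1β-treated libraries, A1 held 3 *Il1a* counts and *Lkb1*-/- 49, a ratio of 0.0648 (95% interval 0.0129 to 0.201, counting error only; FDR 0.00237). Its fitted log2 of -3.79 was -4.64 without treated A1 replicate 3 and -2.29 with unstranded counts, and the call was kept in both. The corresponding ratio of A2 to *Lkb1*-/- was 0.383 (0.213 to 0.662, counting error only), and this difference did not pass (FDR 0.104). Without treated A2 replicate 3 its FDR was 0.0198. *Il1a* lies opposite the transcript *Gm14023*, and the counts used here are strand-specific. With unstranded counts the A2 rise was 2.08 on the log2 scale and lost its call (FDR 0.144).

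*Il1rn*, the receptor antagonist, had the largest called rise with IL-1β among the members detected in untreated cells. Untreated WT libraries held 10, 0 and 3 counts, and untreated *Lkb1*-/- libraries 126, 181 and 218. Counted over the group, *Lkb1*-/- MEFs had 39.5 times the WT level (95% interval 22.9 to 74.8, counting error only; FDR 4.75e-06), and no library overlapped. The fitted log2 difference of 5.27 was 6.68 without WT replicate 1, which held 10 of the 13 WT counts, and 4.69 without WT replicate 2. With IL-1β, *Il1rn* was at 0.815, 0.537 and 0.931 CPM in WT and at 11.8, 17.2 and 20.2 CPM in *Lkb1*-/- MEFs. The treated *Lkb1*-/- level was 21.6-fold that of treated WT (log2 4.43, SE 0.56, FDR 7.62e-07). The clones expressed it too: untreated A1 libraries were at 2.80, 3.10 and 8.20 CPM and untreated A2 libraries at 1.65, 1.16 and 2.95 CPM. After IL-1β the clones reached 9.02, 10.5 and 22.2 CPM in A1 and 8.23, 11.2 and 24.4 CPM in A2, overlapping with treated *Lkb1*-/- libraries. The log2 difference from untreated *Lkb1*-/- was 0.21 in A1 (95% interval -0.78 to 1.20, and -0.47 without untreated A1 replicate 3) and -1.08 in A2 (-2.13 to -0.04; FDR 0.107, and 0.00123 with the replicate number as a block). Cells known for *Il1rn*, leukocytes and keratinocytes, had most of their markers at or near 0, except *Cd68* and *Csf1r*. *Epcam*, though at 13 counts or fewer in every library, was higher in *Lkb1*-/- than in WT MEFs, and its part in the *Il1rn* difference was not tested. The summed leukocyte markers were at 2.49 to 5.13 CPM in WT libraries and 4.45 to 9.11 CPM in the others, and their part in the *Il1rn* difference was not tested.

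*Il1r1*, the receptor chain that binds ligand and signals, was higher in *Lkb1*-/- MEFs. Its levels in untreated WT libraries were 70.9, 86.9 and 90.2 CPM, and in untreated *Lkb1*-/- libraries 129, 163 and 151 CPM. Treated WT libraries had 72.5, 101.7 and 98.4 CPM and treated *Lkb1*-/- libraries 149, 193 and 184 CPM. Each *Lkb1*-/- library lay above each WT library in both states. The difference was 1.79-fold untreated (log2 0.84, SE 0.14, FDR 2.86e-05) and 1.93-fold with IL-1β (log2 0.95, SE 0.14, FDR 6.06e-06). Of 17 tested genes within 1 Mb of *Il1r1*, 8 were higher and 2 lower in untreated *Lkb1*-/- than in WT MEFs, with a median log2 difference of 0.38. *Il1r1* was 1 of 6 members called between untreated *Lkb1*-/- and WT MEFs, among 9 tested, while 55.9% of all tested genes were called, so the share of members called was near the background of these lines. With IL-1β 7 of 9 were called, against 57.4% of all genes. Set against WT, 6 of 9 members were called in untreated A1 (55.4% of all genes) and 7 in treated A1 (56.9%), and 7 in untreated A2 (60.6%) and 8 in treated A2 (60.8%). Among the 6 in untreated A1, the *Irak2* call (log2 -0.36, FDR 0.0157) was lost without untreated A1 replicate 1 (FDR 0.0740) or 2 (0.0625) or untreated WT replicate 2 (0.0548).

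The clones differed from each other in *Il1r1*. Untreated A1 libraries were at 93.2, 100.2 and 83.4 CPM, and untreated A2 libraries at 116, 146 and 126 CPM. A1 thus lay below every untreated *Lkb1*-/- library (log2 -0.68, SE 0.14, FDR 6.41e-04) and overlapped with WT (log2 0.16, 95% interval -0.13 to 0.45, FDR 0.359), whereas A2 overlapped with *Lkb1*-/- (log2 -0.19, 95% interval -0.48 to 0.10, FDR 0.325) and was above WT (log2 0.65, FDR 4.22e-04). With IL-1β the levels were 114, 113 and 92.4 CPM in A1 and 134, 172 and 158 CPM in A2. The same order held: A1 was below *Lkb1*-/- by a log2 difference of -0.72 (FDR 3.64e-04) and A2 was not called (log2 -0.18, 95% interval -0.47 to 0.11). Treated A1 and WT differed by a log2 of 0.23 (FDR 0.171, and 0.0233 with the replicate number as a block). The direct comparison of A2 with A1 gave a log2 difference of 0.49 untreated (FDR 0.00998) and 0.54 with IL-1β (FDR 0.00557). The untreated call was lost without untreated A2 replicate 2 (FDR 0.0508) or without untreated A1 replicate 3 (FDR 0.0544). Both clones are compared here with the same *Lkb1*-/- libraries.

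**Figure D2:**
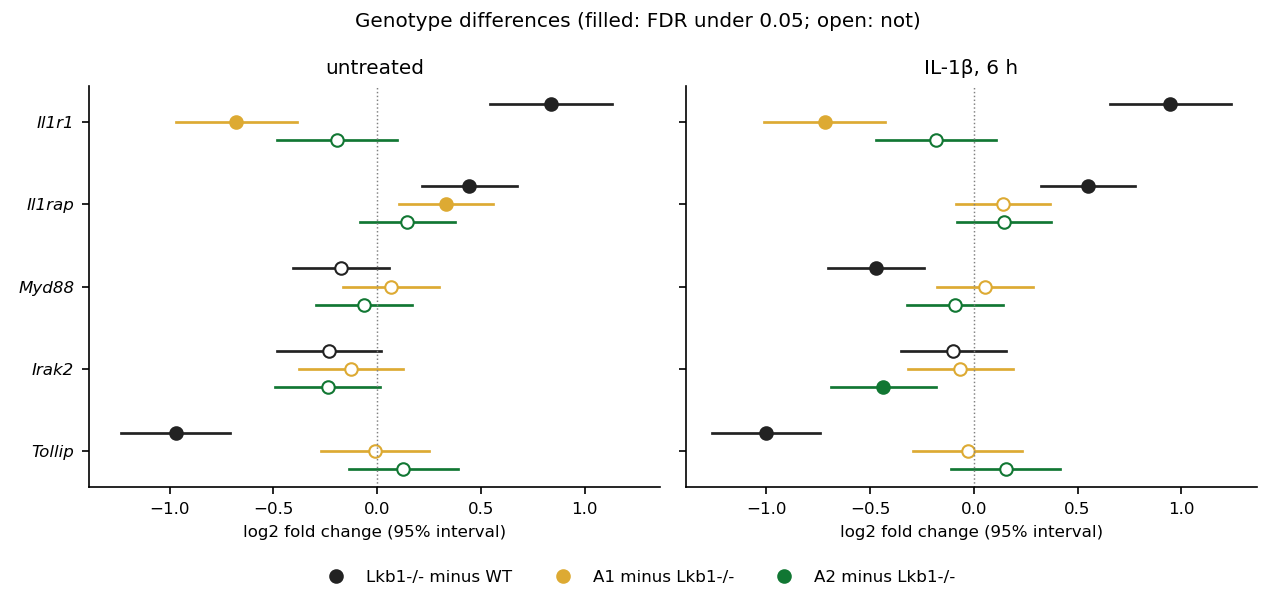
Log2 fold change (horizontal, point) with its 95% interval (line) for the 5 members expressed above the filter in all lines, untreated at left and with IL-1β at right. *Il1r1* and *Il1rap* were higher and *Tollip* lower in *Lkb1*-/- than in WT MEFs in both states, and *Il1r1* was lower in A1 than in *Lkb1*-/- MEFs (-0.68 and -0.72), while the A2 intervals for *Il1r1* included 0.

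*Il1rap*, the accessory chain without which IL1R1 does not signal, was also higher without LKB1, and by a smaller margin. Untreated WT libraries had 66.6, 60.9 and 60.8 CPM and untreated *Lkb1*-/- libraries 90.8, 78.3 and 87.4 CPM (log2 0.45, SE 0.11, FDR 0.00154). Its 5 tested neighbours within 1 Mb had a median log2 difference of 0.65, above its own, with 3 higher and 1 lower. Untreated A1 libraries stood higher still at 109.6, 104.5 and 108.7 CPM, above every *Lkb1*-/- library (log2 0.33, FDR 0.0218), and untreated A2 libraries had 101, 86.7 and 96.5 CPM. In untreated A1, therefore, the 2 chains of the receptor differed from *Lkb1*-/- MEFs in opposite directions. With IL-1β the *Il1rap* difference of A1 from *Lkb1*-/- was 0.14 (95% interval -0.09 to 0.37, FDR 0.348) and was not called. The untreated A1 call for *Il1rap* was lost without untreated A1 replicate 1 (FDR 0.0613), untreated A1 replicate 3 (0.0547) or untreated *Lkb1*-/- replicate 2 (0.108). The untreated A2 difference from *Lkb1*-/- was 0.15 (95% interval -0.08 to 0.37, FDR 0.338).

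The decoy receptor *Il1r2* was barely expressed. It had no count in untreated WT libraries, 1 count in all in treated WT libraries, and 4 to 17 counts in each library of the other lines. Untreated *Lkb1*-/- MEFs were at least 2.59-fold, A1 at least 4.89-fold and A2 at least 3.50-fold above WT, with the WT floor set at 3 counts per library (FDRs 3.22e-05, 1.77e-06 and 6.30e-06). *Il1r2* passed the filter on low counts only through the lines other than WT, so these FDRs are not support separate from the counts. Even so, untreated *Lkb1*-/- MEFs had 0.0970 ± 0.0554 CPM per kb of *Il1r2* and 23.2 ± 2.66 of *Il1r1*.

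Downstream of the receptor, the adaptor *Myd88* was lower in the 3 lines without LKB1 than in WT MEFs after IL-1β. Untreated levels were 43.6 CPM in WT (42.1, 39.8 and 48.7) and 38.6 CPM in *Lkb1*-/- MEFs (37.1, 39.0 and 39.8), a log2 difference of -0.17 (95% interval -0.40 to 0.06, FDR 0.199, and 0.0187 with the block). With IL-1β the WT libraries were at 48.1, 51.9 and 61.1 CPM and the *Lkb1*-/- libraries at 35.0, 39.4 and 41.8 CPM. All treated *Lkb1*-/- libraries then lay below all treated WT libraries (log2 -0.47, SE 0.11, FDR 0.00102). The treated clones were likewise lower than WT (log2 -0.42 in A1, FDR 0.00291, and -0.56 in A2, FDR 1.63e-04) and were not called against *Lkb1*-/-. *Irak2*, the kinase that sustains IL-1 signalling, was not called between *Lkb1*-/- and WT MEFs (log2 -0.23 untreated, FDR 0.109, and 0.00969 with the block). Without untreated WT replicate 1 or untreated *Lkb1*-/- replicate 3 the FDR was 0.0496 or 0.0137. *Irak2* was lowest in treated A2, at 16.9, 16.8 and 18.5 CPM, below treated *Lkb1*-/- at 25.5, 20.2 and 24.9 CPM. That difference (log2 -0.44, SE 0.12, FDR 0.00841) was the 1 call among 9 members between treated A2 and *Lkb1*-/- MEFs, where 32.8% of all genes were called.

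Of the inhibitors, *Irak3*, which encodes the IRAK family member that restrains signalling from the MYD88 complex, showed the widest difference between lines. WT libraries held 3, 0 and 3 counts untreated and 0, 1 and 2 counts with IL-1β. Untreated *Lkb1*-/- libraries held 260, 247 and 291 counts, or 5.89, 5.73 and 6.93 CPM, and treated ones 11.5, 15.7 and 17.6 CPM. The gene was therefore near the detection limit in one line and plainly expressed in the other. Over the group the untreated ratio of *Lkb1*-/- to WT was 130 (95% interval 59.6 to 356, counting error only; FDR 3.03e-11) and the treated ratio 607 (208 to 2948; FDR 1.02e-12). The treated ratio rests on 3 WT counts: its fitted log2 of 9.08 was 9.93 without treated WT replicate 3 and 8.21 with unstranded counts. *Irak3* lies on chromosome 10, where the median log2 difference between untreated *Lkb1*-/- and WT MEFs was -0.44 over 814 tested genes, against 0.04 over all genes. Of its 12 tested neighbours within 1 Mb, 1 was higher and 7 were lower, so *Irak3* differed in the direction opposite to most of its surroundings.

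In clone A1 *Irak3* lay between WT and *Lkb1*-/- MEFs in both states, and in clone A2 it was not called against *Lkb1*-/- MEFs in either state. Untreated A1 libraries were at 2.49, 3.55 and 3.75 CPM, below every untreated *Lkb1*-/- library (log2 -0.92, SE 0.26, FDR 0.00840, or 0.0506 without untreated A1 replicate 1). Untreated A2 libraries were at 6.31, 9.38 and 11.4 CPM, a log2 difference from *Lkb1*-/- of 0.54 (95% interval 0.02 to 1.06) that was not called (FDR 0.107, or 0.00463 with the block and 0.0209 without untreated A2 replicate 1). Untreated A2 exceeded untreated A1 by a log2 of 1.46. With IL-1β A1 was at 3.04, 3.57 and 3.50 CPM and A2 at 8.61, 13.6 and 16.5 CPM, the latter overlapping with treated *Lkb1*-/- libraries (log2 -0.21, 95% interval -0.72 to 0.30, FDR 0.558). Treated A1 was 0.226 times treated *Lkb1*-/- (log2 -2.14, SE 0.26, FDR 1.94e-06), and treated A2 exceeded treated A1 by a log2 of 1.93 (FDR 8.81e-06). Whether the gap between the clones changed with IL-1β was not tested. Relative to untreated *Lkb1*-/- MEFs, 3 of 9 members were called in A1 (*Il1r1*, *Il1rap* and *Irak3*; 35.3% of all genes) and 0 of 9 in A2 (32.3% of all genes). In the A2 comparison 2 members had an unadjusted p under 0.05 (*Il1rn* and *Irak3*), DESeq2 called 0, and the block called 3 (*Il1rn*, *Irak2* and *Irak3*), a share below the 45.9% of all genes that it called. In treated cells 3 of 9 were called in A1 (*Il1r1*, *Il1a* and *Irak3*, all lower; 36.7% of all genes). Between A2 and A1, 2 of 9 were called untreated (32.5% of all genes) and 3 of 9 treated (30.7%). Among the latter the *Irak2* call (FDR 0.0248) was lost without treated A2 replicate 1 (FDR 0.0620) or 2 (0.0817) or treated A1 replicate 3 (0.151).

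*Tollip*, an adaptor that holds IRAK1 in check, was the only member called lower in both states in *Lkb1*-/- than in WT MEFs. Untreated WT libraries were at 98.5, 104.2 and 100.7 CPM and untreated *Lkb1*-/- libraries at 46.2, 54.3 and 54.4 CPM. Treated levels were 98.8, 99.0 and 102.5 CPM in WT and 42.7, 53.0 and 54.2 CPM in *Lkb1*-/- MEFs. *Lkb1*-/- MEFs thus had 0.510 times the WT level untreated (log2 -0.97, SE 0.13, FDR 1.05e-06) and 0.499 times with IL-1β (FDR 6.65e-07). Both clones stayed at the *Lkb1*-/- level: the untreated log2 difference was -0.01 in A1 (95% interval -0.27 to 0.25) and 0.13 in A2 (-0.13 to 0.39). Of 49 tested neighbours of *Tollip* within 1 Mb, 26 were also lower and 7 higher.

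**Figure D3:**
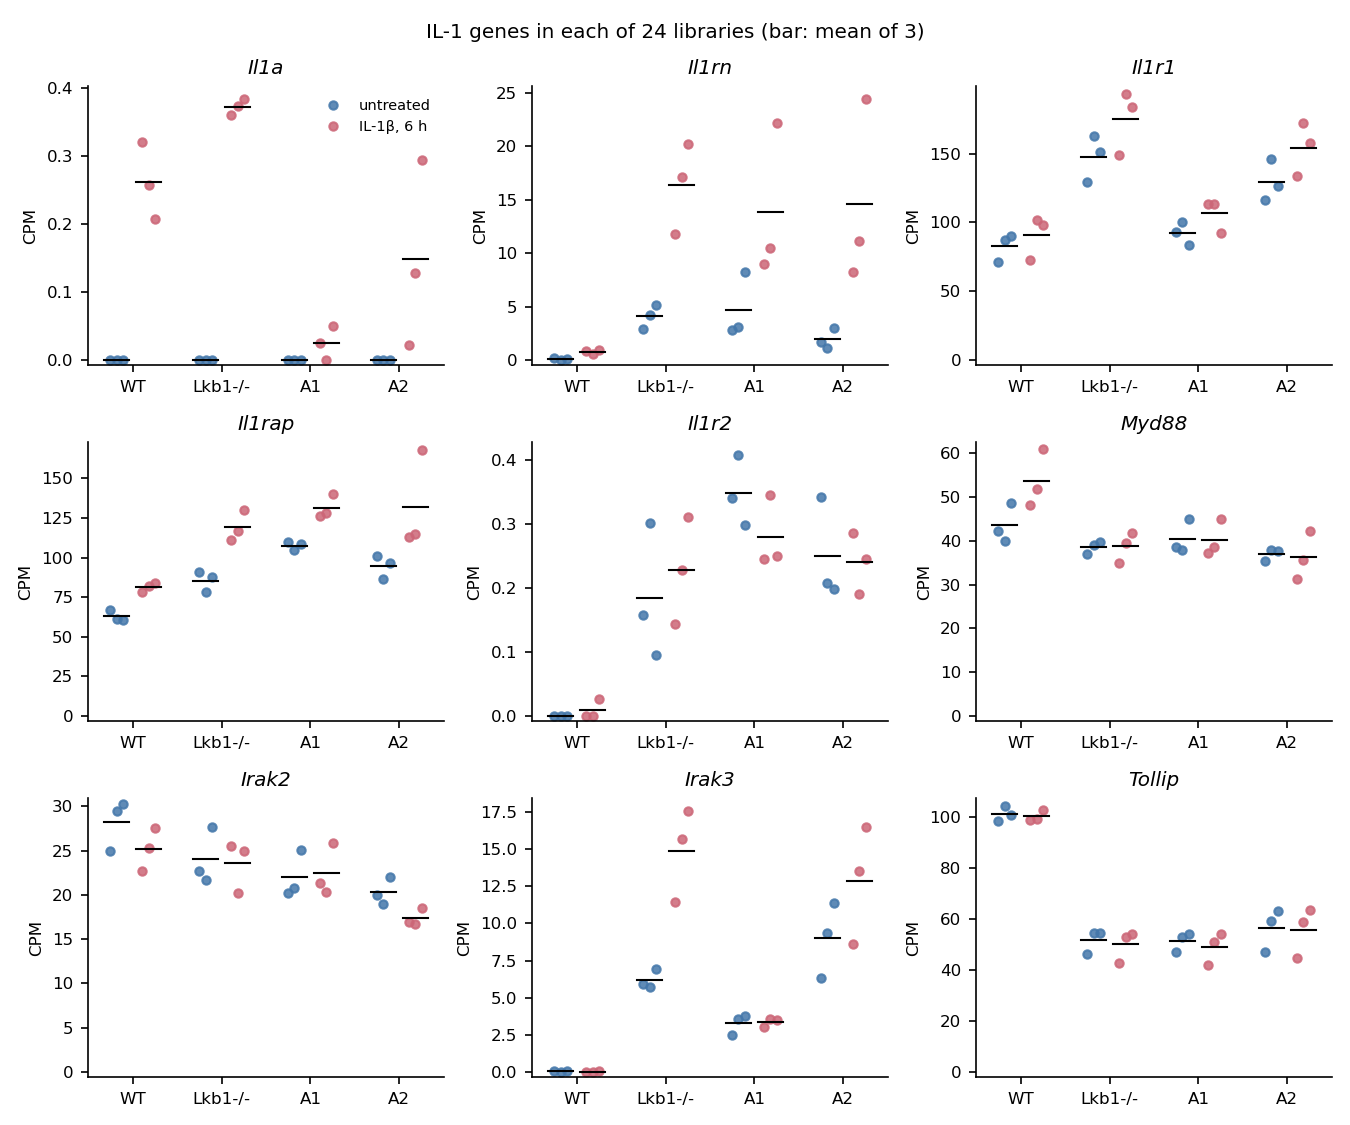
CPM (vertical, from 0) of 9 IL-1 genes in each of the 24 libraries, untreated in blue and IL-1β-treated in red, with a bar at the mean of 3. *Irak3* was at most 0.0782 CPM in WT libraries and at least 2.49 CPM in all others, *Tollip* was 98.5 CPM or more in WT and 63.5 CPM or less elsewhere, and *Il1r1* in A1 sat near WT.

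Between 0 and 4 of the 9 tested members were called with IL-1β, depending on the line. It changed 1 in WT (*Il1a*; 2.26% of all genes were called), 4 in *Lkb1*-/- (*Il1rap*, *Il1rn*, *Il1a* and *Irak3*; 4.74%), 0 in A1 (1.99%) and 3 in A2 (*Il1rap*, *Il1rn* and *Il1a*; 5.68%). With the replicate number as a block the counts were 4 in WT (9.30% of all genes were then called), 4 in *Lkb1*-/- (14.8%), 2 in A1 (9.61%) and 4 in A2 (17.9%), so the block raised the calls among all genes too. In A1, 2 members had an unadjusted p under 0.05 (*Il1rap* and *Il1rn*) and DESeq2 called 0. No member was called lower in any line.

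*Il1rap* rose with IL-1β by a log2 of 0.48 in *Lkb1*-/- (SE 0.11, FDR 0.00995) and 0.48 in A2 (SE 0.11, FDR 0.00930). In *Lkb1*-/- MEFs the treated libraries were at 111, 117 and 130 CPM, all above the untreated ones. The A2 libraries were at 113, 115 and 168 CPM when treated. The difference was 0.38 in WT, where treated libraries were at 78.0, 82.3 and 84.1 CPM (FDR 0.0889, and 0.00894 with the block), and 0.29 in A1, at 126, 128 and 140 CPM (FDR 0.260, and 0.0398 with the block). Every treated library exceeded every untreated one of its line, whether or not the call was made. The *Lkb1*-/- call was lost without untreated replicate 2 (FDR 0.0756) and the A2 call without untreated A2 replicate 2 (FDR 0.0501) or in a fit of the compared groups alone (FDR 0.230). *Il1r1* was not called in any line, with log2 differences of 0.14 in WT (95% interval -0.15 to 0.43), 0.25 in *Lkb1*-/- (-0.04 to 0.54), 0.21 in A1 (-0.08 to 0.50) and 0.25 in A2 (-0.03 to 0.54). In all 12 pairs of same-numbered libraries, however, its treated level was above the untreated one, as was that of *Il1rap* and of 5.32% of all tested genes. With the block the FDRs for *Il1r1* were 0.457 in WT, 0.0725 in *Lkb1*-/-, 0.176 in A1 and 0.0549 in A2, and without a filter on low counts it was called in *Lkb1*-/- (FDR 0.0447) and A2 (FDR 0.0227).

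*Il1rn* rose by a log2 of 2.01 in *Lkb1*-/- (SE 0.47, FDR 0.0128) and 2.92 in A2 (SE 0.50, FDR 7.08e-04). The *Lkb1*-/- call was lost without untreated replicate 1 (FDR 0.0626) or 2 (0.0578). The values were 2.85 in WT (FDR 0.141, and 0.00309 with the block), where counts went from 13 to 92 over 3 libraries, a ratio of 7.34 (95% interval 4.09 to 14.3, counting error only), and 1.56 in A1 (FDR 0.108, and 4.34e-05 with the block). The WT value was 4.26 without untreated replicate 1 (FDR 0.114) and 2.26 without untreated replicate 2 (FDR 0.488), and DESeq2 called it (FDR 0.00248). Replicate 3 was the highest A1 library both untreated, at 8.20 CPM, and treated, at 22.2 CPM. Without the untreated one alone, which leaves its treated partner in, the A1 value was 2.23 (FDR 0.0320). *Irak3* rose by 1.27 in *Lkb1*-/- (SE 0.25, FDR 0.00312), and no treated library overlapped with an untreated one. Its difference was 0.05 in A1 (95% interval -0.51 to 0.60, FDR 0.981) and 0.51 in A2 (0.00 to 1.03, FDR 0.283, and 0.00965 with the block). *Myd88* differed by 0.30 in WT (FDR 0.226, and 0.00200 with the block) and by 0.00, -0.01 and -0.02 in *Lkb1*-/-, A1 and A2. *Irak2* and *Tollip* were not called in any line.

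**Figure D4:**
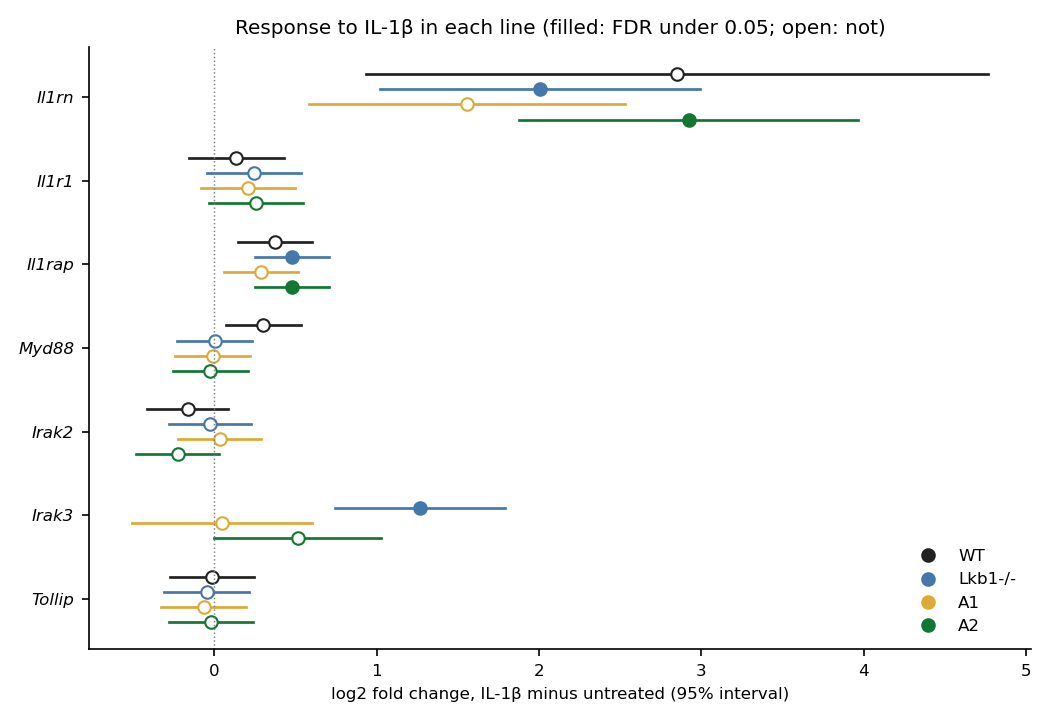
Log2 fold change with IL-1β in each line (horizontal, point) with its 95% interval (line) for 7 members, filled where the FDR was under 0.05. *Il1rn* rose by 2.01 in *Lkb1*-/- and 2.92 in A2, *Il1rap* by 0.48 in both, and *Irak3* by 1.27 in *Lkb1*-/- but differed by 0.05 in A1. *Irak3* in WT, with at most 3 counts a library, is not drawn.

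Whether the response itself depended on genotype was tested by the difference between responses. None of the 9 members was called for *Lkb1*-/- minus WT (0.245% of all genes were called), A1 minus *Lkb1*-/- (0.0285%) or A2 minus *Lkb1*-/- (0.00%), and DESeq2 called 0 in each. An unadjusted p under 0.05 was found for 0, 1 and 1 members, the latter *Irak3* both times. For *Il1r1* the difference was 0.11 for *Lkb1*-/- minus WT (95% interval -0.30 to 0.52), and for *Il1rap* 0.10 (-0.22 to 0.43). For *Irak3* the interval excluded 0: its response in A1 minus that in *Lkb1*-/- was -1.22 (-1.98 to -0.46, FDR 1.00), and -1.18 with the replicate number as a block (FDR 0.0137) or -1.21 without a low-count filter (FDR 3.38e-04). The A2 value was -0.75 (-1.48 to -0.03, FDR 1.00).

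The wider IL-1 family was read in lists of other genes. Among receptor-proximal kinases and ubiquitin ligases all 18 were tested, of which 3 were higher and 7 lower in untreated *Lkb1*-/- than in WT MEFs, with a median log2 difference of -0.08 against 0.04 for all genes. These 10 calls are near the background of 55.9% of all genes. *Peli2*, a Pellino ubiquitin ligase that acts on IRAK proteins, was at 4 counts or fewer in WT libraries and at 35.0 ± 5.44 CPM (SD, n = 3) in untreated *Lkb1*-/- MEFs (FDR 3.78e-14), while *Ube2n*, which builds the ubiquitin chains of the pathway with TRAF6, was lower (log2 -0.90, FDR 6.48e-13). *Irak1*, the kinase that IRAK2 partners, was lower in both clones than in *Lkb1*-/- MEFs (log2 -0.47 in A1, FDR 1.90e-05, and -0.79 in A2, FDR 4.36e-08). None of the 18 was called with IL-1β in any line by the same test.

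Of the 7 other receptors of the family 5 were tested, and 3 were higher and 2 lower in untreated *Lkb1*-/- than in WT MEFs (median log2 1.60), where 55.9% of all genes were called. *Il1rl1*, which encodes the IL-33 receptor ST2 and shares the accessory chain IL1RAP with IL1R1, exceeded *Il1r1* per length in every group but untreated A2: it was at 98.0 CPM per kb in untreated *Lkb1*-/- MEFs and 16.3 in untreated A2, where *Il1r1* was at 20.3. It was higher in untreated *Lkb1*-/- than in WT MEFs (log2 1.60, SE 0.19, FDR 2.54e-07), lower in untreated A2 than in *Lkb1*-/- MEFs (log2 -2.59, FDR 4.85e-09) and rose with IL-1β in WT, *Lkb1*-/-, A1 and A2 (log2 1.09, 1.11, 0.81 and 1.77; FDRs 0.00131, 5.46e-04, 0.0211 and 2.23e-06). *Il18*, a related cytokine that also needs processing, was among the 3 of 8 other ligands and binding proteins tested and was at 0.225 ± 0.118 CPM in untreated WT, 4.16 ± 1.33 in *Lkb1*-/-, 15.5 ± 2.53 in A1 and 13.6 ± 3.29 in A2 (A1 and A2 minus *Lkb1*-/- log2 1.90 and 1.71, FDRs 9.13e-06 and 3.92e-05).

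In the list of 7 IL-1 processing genes 4 were tested, 2 of them higher and 2 lower in untreated *Lkb1*-/- than in WT MEFs (median log2 -0.24; 55.9% of all genes called). *Gsdmd*, the pore through which mature IL-1β leaves the cell, had 0 counts in untreated WT libraries and 199 to 232 in untreated *Lkb1*-/- libraries (FDR 3.48e-14). *Casp4*, the inflammatory caspase that cleaves it, went the other way, at 11.7 ± 2.73 CPM in untreated WT and 0.608 ± 0.252 CPM in *Lkb1*-/- MEFs (log2 -4.27, FDR 2.16e-11), and rose with IL-1β in WT (log2 1.65, FDR 7.00e-05) and, from a mean of 0.0733 CPM, in A2 (log2 2.21, FDR 0.0102).

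As a description of pattern, the genes whose log2 CPM followed a member most closely over the 24 libraries were found among 9368 genes. For *Il1r1* they were *Kdm3a* (r = 0.939), *Hr* (r = 0.921) and *Epb41l3* (r = 0.918). For *Il1rap* they were *Traf2* (r = 0.949), *S1pr1* (r = 0.938) and *Mmp3* (r = 0.916), and for *Irak2* they were *Dynlt3* (r = 0.930), *Rdh10* (r = 0.859) and *Fancl* (r = 0.858). The points share lines, treatments and replicate numbers.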

How the data were processed

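Gene counts were taken as the authors deposited them: whole-number counts per gene from STAR, 1 table per library, with Trim Galore 0.6.0, STAR 2.7.8a and mm10 named in the submitters' processing notes. The labels name a SMARTER mRNA-Seq kit, whereas the study's methods name a KAPA kit with ribosomal RNA depletion. The second-strand column was used, which held 95.5 to 96.0% of stranded gene counts. Lines that name no gene held 26.7 to 34.4% of each table and were left out. Symbols, positions and exon lengths came from GENCODE M21 (same build; the authors used a later release), which matched 55230 of 55471 identifiers.

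Genes were filtered with filterByExpr (minimum count 10, total 15), scaled by TMM and tested with the legacy quasi-likelihood F-test of edgeR 4.0.16 (R 4.3.3) in 1 fit of all 24 libraries, with a mean for each group and 19 contrasts. *Il1a*, *Il1r2* and *Irak3* passed the filter only through the groups where they were high. FDR is the Benjamini-Hochberg value over all 17522 genes, and a gene was called under 0.05. Intervals of log2 fold changes are 95% intervals from the fit's standard error. CPM are scaled by TMM. Intervals of count ratios and the floor of 3 counts cover counting error only. All 10 members are described, and a gene of another list is named where it was called, at most 4 per list and contrast. The members and lists were chosen with earlier results of these data known. Tested on simulated data for untreated *Lkb1*-/- minus WT (16100 genes), the fit recovered 56.7% of genes changed by 0.5 log2, 91.0% by 1 and 100% by 2. Only 67, 67 and 66 genes were so changed, all above 1 CPM in untreated WT, whereas 9798 were called in the data. The simulated libraries shared no replicate effect. These rates therefore do not cover members near 0 in WT or the IL-1β responses.

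Replicate numbers come from the labels. Same-numbered libraries deviated together: all 84 correlations of their deviations exceeded 0.1 (0.238 to 0.819) over the 9369 genes averaging more than 3 log2 CPM, and 69 of 84 did over all tested genes, so blocked values are given where they change a call. Alternatives were unstranded counts, DESeq2 size factors, upper-quartile scaling, the newer quasi-likelihood form, DESeq2 1.42.0, no filter, a filter of 10 counts in every library, a fit of the compared groups alone, the replicate block, and each library left out in turn. Promoter windows came from RefSeq (GRCm38.p6).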

Additional observations from a re-analysis of the deposited data

How the results depend on the processing

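Counts of members called are given here as they change with the processing. No member called in either fit changed sign under any alternative. The replicate block kept every call and moved the count from 0 to 3 for A2 minus *Lkb1*-/- untreated, 3 to 5 for A2 minus A1 with IL-1β, 1 to 4 for the WT response, 0 to 2 for the A1 response and 0 to 1 for the A1 minus *Lkb1*-/- difference of responses. It raised the share of all genes called as well, from 32.3 to 45.9%, 30.7 to 44.4%, 2.26 to 9.30%, 1.99 to 9.61% and 0.0285 to 0.205% in that order. The count for *Lkb1*-/- minus WT untreated went from 6 to 8 with the block (55.9 to 64.3% of all genes). It went from 7 to 8 for A2 minus WT untreated (60.6 to 68.6%) and for A1 minus WT treated (56.9 to 66.1%). It went from 2 to 3 for A2 minus A1 untreated (32.5 to 46.3%) and from 3 to 4 for the A2 response (5.68 to 17.9%). Beside the calls named in the report the block added *Myd88* in A2 minus WT untreated (FDR 0.00177), *Il1rn* in A2 minus A1 untreated (4.49e-04), and *Il1a* (0.0492) and *Tollip* (0.0386) in A2 minus A1 with IL-1β, and it changed no other call. A filter of 10 counts in every library left 5 members to test, and the counts became 3 and 4 for *Lkb1*-/- minus WT untreated and treated, 2 and 1 for A1 minus *Lkb1*-/- untreated and treated, 3 and 3 for A1 minus WT, 4 and 5 for A2 minus WT, 1 and 2 for A2 minus A1 untreated and treated, and 0, 1 and 1 for the WT, *Lkb1*-/- and A2 responses. Of the 12755 genes left by this filter, 3967 were higher and 3877 lower in untreated *Lkb1*-/- than in WT MEFs. In the *Lkb1*-/- response 424 were higher and 382 lower, and in the A2 response 535 and 540. Without a filter the counts of members called became 2 for A2 minus *Lkb1*-/- untreated, 3, 5, 2 and 5 for the WT, *Lkb1*-/-, A1 and A2 responses (adding *Il1r1* in *Lkb1*-/- and A2), and 1 each for the A1 and A2 differences of responses, and *Myd88* in A2 minus WT untreated (FDR 0.0184), *Il1rn* in A2 minus A1 untreated (4.82e-12) and *Il1r1* in A1 minus WT treated (0.00779) were added. The shares of all 36796 genes called without a filter were 15.1% for A2 minus *Lkb1*-/- untreated and 2.59, 3.88, 2.47 and 4.47% for the 4 responses. They were 0.383 and 0.185% for the A1 and A2 differences of responses. The newer quasi-likelihood form gave 1 and 2 for A2 minus *Lkb1*-/- untreated and treated and 4 for A2 minus A1 treated (adding *Il1a*, FDR 0.0483), and a fit of the compared groups alone gave 1 for the A1 and 1 for the A2 response. With the newer form 3112 of all 17522 genes were higher and 2709 lower in untreated A2 than in *Lkb1*-/- MEFs. With the compared groups alone 255 of 15716 genes were higher and 216 lower in the A1 response, and 180 and 66 of 16001 in the A2 response. Unstranded counts lost the *Il1a* rise in A2, which left 2 calls in that response, and added *Irak2* in *Lkb1*-/- minus WT (0.0203), *Myd88* in A2 minus WT (0.0427) and *Il1a* in A1 minus WT (0.0483), all untreated. In the A2 response with unstranded counts 451 of 19251 genes were higher and 433 lower. Upper-quartile scaling added *Il1r1* in A1 minus WT treated (0.0261) and *Il1rn* in A2 minus A1 untreated (0.0411), the compared groups alone *Myd88* in A2 minus WT untreated (0.0476) and *Il1rap* in the WT response (0.0141), and DESeq2 *Il1rn* in the WT response (0.00248). Leaving out 1 library gave 6 to 7 for *Lkb1*-/- minus WT untreated, 1 to 3 for A1 minus *Lkb1*-/- untreated, 0 to 1 for A2 minus *Lkb1*-/- untreated, 1 to 2 for A2 minus *Lkb1*-/- treated, 5 to 6 for A1 minus WT untreated, 7 to 8 and 8 to 9 for A2 minus WT untreated and treated, 1 to 3 for A2 minus A1 untreated, 2 to 4 for A2 minus A1 treated, 0 to 1 for the WT response, 2 to 4 for *Lkb1*-/-, 0 to 1 for A1 and 1 to 3 for A2. The cause of these changes was not tested. Of 1188 single values with a library left out, 20 lost a call and 15 gained 1. The share of all genes called is not given for these fits. The depth limits *Il1b*, *Il1r2*, *Il1a* and, in WT, *Irak3* and *Il1rn*.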
